A study of Mus musculus with 6 samples.

Results

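The 10 genes described here encode neuropeptide precursors of dorsal root ganglion neurons: galanin (Gal), neurotensin (Nts), neuropeptide Y (Npy), vasoactive intestinal peptide (Vip), cholecystokinin (Cck), somatostatin (Sst), natriuretic peptide B (Nppb), the substance P precursor Tac1 and the 2 calcitonin gene-related peptide (CGRP) genes Calca and Calcb. They were taken by symbol, and all 10 were found among the 55809 gene symbols of the count files. The genes were chosen by measured values, their CPM (read counts scaled to the total of the library) in these same stress and control pools, so that contrast is given for them as a description and supports nothing.

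Dorsal root ganglia hold the cell bodies of sensory neurons. Bulk poly-A RNA was sequenced from ganglia of 8-week-old C57BL6J offspring in 6 libraries, 3 control pools and 3 prenatal stress pools, each pooled from 3 mice and labelled a biological replicate. Stress consisted of tube restraint of the pregnant dam with bright light, 3 sessions of 30 min a day from embryonic day 13 to 18 (the design text gives slightly later days), and control dams were left undisturbed. The labels give no litter and no sex for a pool, although both sexes were used, so p-values measure only the spread between pools. The titles give 3 mice a pool and the design text 9 mice a group, while the treatment protocol gives 3 mice a group, so whether the pools hold separate animals is not settled by the labels.

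Neuropeptides are made as longer precursors, cut by prohormone convertases inside dense-core vesicles and released, most of them onto G-protein-coupled receptors and Nppb onto receptor guanylyl cyclases. CGRP and substance P mark the peptidergic nociceptors, while Nppb, Sst and Nts are known from a class of itch neurons. Gal, Npy, Vip and Cck are low in uninjured ganglia and are known to rise in sensory neurons after nerve injury, when Calca and Tac1 fall.

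The libraries held 51749334 to 87421228 counts in genes. Sensory neuron markers were abundant in all pools, with the sum over the 13 matched symbols at 13785 to 14489 CPM in controls and 13946 to 14482 CPM in stress pools. Other tissue differed between pools. The summed skeletal muscle markers stood at 2298 CPM in control pool 3 and 73.4 to 105 CPM in the other pools, and neutrophil and marrow markers ranged from 42.9 CPM in stress pool 1 to 395 CPM in stress pool 3. Satellite glia markers were lower in stress pools without overlap as a sum, at 2753, 2953 and 2753 CPM in controls and 2589, 2534 and 2456 CPM in stress pools. All 8 had negative log2 fold changes, and 4 were lower without overlap, beside 8.76% of all genes tested. Of the 8, 0 passed the edgeR test, with the glial lipid-binding gene Fabp7 at -0.55 ± 0.13 (adjusted p = 0.273). Their part in the peptide values was not tested. Spinal cord and sympathetic markers are given beside the peptides they are set against.

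Promoter sequences are shown for 5 of the genes: Gal and Nts, which had the lowest adjusted p, and Vip, Cck and Sst, which were all highest in the same stress pool. RefSeq on GRCm38.p6 matched 9 of the 10 genes, and each sequence runs 5′ to 3′ from 250 bases before to 50 bases after the annotated start. Capitals mark TGACG (the core of a cAMP response element), its full palindrome TGACGTCA, which contains TGACG on both strands, and the AP-1 motif TGACTCA, each searched on both strands. Gal lies at chr19:3414495-3414794 (minus strand), Nts at chr10:102490369-102490668 (minus), Vip at chr10:5638968-5639267 (plus), Cck at chr9:121495645-121495944 (minus) and Sst at chr16:23890795-23891094 (minus).
Gal: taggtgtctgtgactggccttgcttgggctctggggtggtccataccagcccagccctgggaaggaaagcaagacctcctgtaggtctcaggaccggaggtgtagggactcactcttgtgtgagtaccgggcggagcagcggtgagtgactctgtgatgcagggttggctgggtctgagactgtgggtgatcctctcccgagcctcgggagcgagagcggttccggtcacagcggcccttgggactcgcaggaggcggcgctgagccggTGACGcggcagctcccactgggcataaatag
Nts: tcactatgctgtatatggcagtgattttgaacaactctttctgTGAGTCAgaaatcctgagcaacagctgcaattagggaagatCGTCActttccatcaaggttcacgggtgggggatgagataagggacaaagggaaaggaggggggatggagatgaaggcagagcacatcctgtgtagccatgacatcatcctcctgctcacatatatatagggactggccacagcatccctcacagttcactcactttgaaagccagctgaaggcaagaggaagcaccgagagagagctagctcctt
Vip: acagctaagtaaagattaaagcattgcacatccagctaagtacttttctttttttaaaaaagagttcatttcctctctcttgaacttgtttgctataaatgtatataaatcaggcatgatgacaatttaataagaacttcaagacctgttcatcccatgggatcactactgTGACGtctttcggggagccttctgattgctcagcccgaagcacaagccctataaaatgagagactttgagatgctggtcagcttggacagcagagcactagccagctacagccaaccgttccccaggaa
Cck: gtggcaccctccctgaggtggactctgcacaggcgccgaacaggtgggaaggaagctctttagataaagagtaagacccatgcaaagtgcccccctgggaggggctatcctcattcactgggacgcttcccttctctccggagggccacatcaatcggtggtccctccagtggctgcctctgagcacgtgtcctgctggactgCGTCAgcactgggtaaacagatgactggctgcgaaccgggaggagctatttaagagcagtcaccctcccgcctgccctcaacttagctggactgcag
Sst: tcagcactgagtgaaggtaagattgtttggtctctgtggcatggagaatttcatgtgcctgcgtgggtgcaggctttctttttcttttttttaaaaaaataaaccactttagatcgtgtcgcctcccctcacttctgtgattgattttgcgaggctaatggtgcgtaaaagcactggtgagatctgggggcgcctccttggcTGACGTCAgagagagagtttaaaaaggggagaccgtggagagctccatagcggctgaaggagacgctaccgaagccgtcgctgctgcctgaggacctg
TGACG was present in 7 of the 9 matched promoters, those of Gal, Nts, Vip, Cck, Sst, Tac1 and Calca, and in 20.8% of all 32851 promoters of this length. In Sst it formed the full palindrome, beginning 48 bases before the start, a motif found in 1.79% of promoters. In Vip it began 79 bases and in Cck 47 bases before the start, while in Gal it lay 20 bases after it. The AP-1 motif was found in Nts alone among the 9, beginning 207 bases before the start, and in 5.2% of all promoters. Npy, also highest in stress pool 2, and Nppb held none of the 3 motifs in this window. A match is a run of letters and was not tested for binding.

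Per transcript length, the 10 genes spanned from Calca down to Vip. Levels were compared as CPM per kb of the longest annotated transcript. In control pools Calca stood at 1283 ± 115 CPM per kb, Calcb at 149.7 ± 7.08, Tac1 at 112 ± 2.73 and Gal at 30.3 ± 1.56 (SD, n = 3 pools). Nts followed at 15.8 to 21.6, Nppb at 12.7 ± 1.43, Sst at 9.1 ± 1.39 and Npy at 4.51 ± 0.891 CPM per kb. Cck (0.252 ± 0.129) and Vip (0.0764 ± 0.0498) were lowest, and these neighbours were the only pair whose control pools overlapped. In stress pools the order of Nts and Nppb was turned, with Nts at 7.17 to 9.02 and Nppb at 10.2 to 12.1 CPM per kb. These orders depend on the transcript length used. Without it, the ratio of Nts to Nppb counts was 0.999, 1.41 and 0.953 in stress pools. In controls, Tac1 stood at 220 ± 5.39 CPM, above Calcb at 144 ± 6.81 CPM. Calca alone made up 73.7% to 76% of the CPM summed over the 10 genes in each pool.

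**Figure D1:**
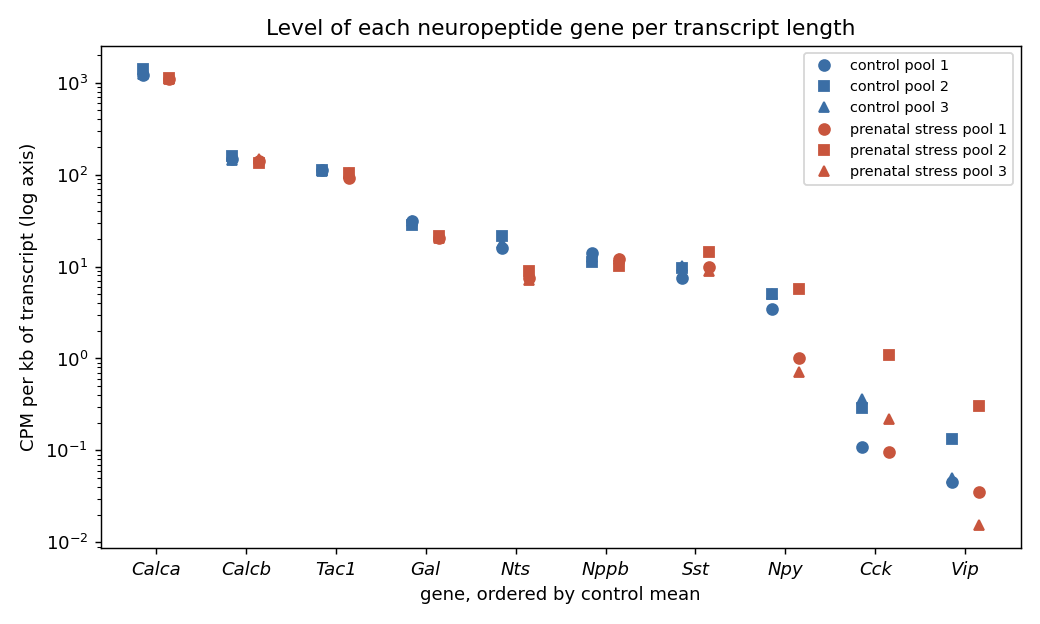
Level of each neuropeptide gene in CPM per kb of its longest transcript, on a log axis, in 3 control pools (blue) and 3 prenatal stress pools (red). Calca lies above all others, Nts drops below Nppb in the stress pools, and Npy, Cck and Vip are the genes in which stress pool 2 (red square) stands above the other 2 stress pools by the widest margins.

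Of the 10 genes, 9 passed the filter on low counts and were tested, and Vip did not. Gal and Nts were called lower in prenatal stress pools (edgeR quasi-likelihood test with Benjamini-Hochberg adjustment), beside 0.129% of all 20146 genes called in either direction and 0.0447% called lower, and 0 of the 10 were called higher, beside 0.0844% of all genes. The 9 tested genes had a median log2 fold change of -0.17, against 0.01 over all genes. Of these 9, 7 had negative values, as had 9618 of all genes tested. In a bulk sample, fewer cells of a type and less RNA per cell cannot be told apart.

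Galanin acts on inhibitory and excitatory receptors in sensory circuits. Gal stood at 24.7, 22.4 and 24.4 CPM in control pools 1 to 3 and at 16.2, 16.9 and 16.2 CPM in stress pools 1 to 3. The stress pools lay close together and all below the lowest control pool. Gal thus fell from 23.8 ± 1.23 to 16.4 ± 0.411 CPM (SD, n = 3 pools each), a log2 fold change of -0.54 ± 0.05 (SE, edgeR adjusted p = 0.02). With the replicate number as a block the adjusted p was 0.0696. Leaving out each of the 6 pools in turn gave -0.58 to -0.51 with adjusted p of 0.0713 (without control pool 2) to 0.174 (without stress pool 1), so the call was lost without any of them.

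Neurotensin is a peptide of the Nppb-expressing itch neurons. Nts stood at 19.7, 27 and 22.4 CPM in control pools and at 9.41, 11.3 and 8.95 CPM in stress pools. Pool 2 was the highest of both groups, and the groups did not overlap. Nts fell from 23 ± 3.65 to 9.87 ± 1.22 CPM, a log2 fold change of -1.22 ± 0.13 (edgeR adjusted p = 0.0297, and 0.00891 with the replicate block). It kept its call without control pool 1 and lost it without any other single pool, with adjusted p of 0.0627 (without stress pool 2) to 0.174 (without stress pool 1) and log2 fold changes of -1.33 to -1.10.

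Nppb and Sst, peptides of the same itch class, overlapped between the groups. Nppb, needed for itch signalling to the spinal cord, stood at 11, 8.75 and 9.98 CPM in controls and 9.43, 7.98 and 9.39 CPM in stress pools. The log2 fold change of Nppb was -0.15 ± 0.11 (edgeR adjusted p = 0.641). Sst, an inhibitory peptide, stood at 5.42, 7.01 and 7.26 CPM in controls and 7.05, 10.4 and 6.43 CPM in stress pools. Only stress pool 2 lay above the control range of Sst, and the log2 fold change was 0.28 ± 0.20 (adjusted p = 0.638), or 0.03 ± 0.14 without that pool. Within a library, the ratio of Nts to Nppb counts was 1.80, 3.08 and 2.25 in control pools and 0.999, 1.41 and 0.953 in stress pools. The ratio of Nts to Sst counts was 3.64, 3.85 and 3.09 against 1.34, 1.08 and 1.39. Neither ratio overlapped between the groups. They rest on the same Nts counts, and with 3 pools against 3 no exact permutation test could give a two-sided p below 0.10. Of 5 other markers of this class, among them the interleukin 31 receptor Il31ra at 49.6 to 53.6 CPM in controls and 43 to 59 CPM in stress pools, 0 passed the edgeR test and 0 had an unadjusted p under 0.05.

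Tac1, Calca and Calcb, the abundant peptide genes of peptidergic nociceptors, did not pass the edgeR test. Tac1 stood at 223, 224 and 214 CPM in controls and 182, 203 and 204 CPM in stress pools. Calca, whose transcripts give calcitonin as well as CGRP, stood at 1194, 1407 and 1226 CPM in controls and 1084, 1108 and 1092 CPM in stress pools. Neither gene overlapped between the groups, although control pool 2 set much of the distance for Calca. The log2 fold change was -0.17 ± 0.05 for Tac1 (edgeR adjusted p = 0.337) and -0.22 ± 0.06 for Calca (adjusted p = 0.322). Without control pool 2 the value for Calca was -0.15 ± 0.04. By the DESeq2 Wald test Calca was also called lower (-0.23 ± 0.06, adjusted p = 0.0149), giving 3 members with Gal and Nts beside 2.2% of all genes with an adjusted p in that test.

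Calcb, which encodes the second CGRP, stood at 141, 152 and 139.5 CPM in controls and 136, 128 and 143 CPM in stress pools. The groups overlapped, and the log2 fold change was -0.09 ± 0.05 (edgeR adjusted p = 0.583). The ratio of Calca to Calcb counts was 8.85 ± 0.391 in controls and 8.08 ± 0.526 in stress pools and overlapped as well. The annotated transcripts of Calca and Calcb share an exact run of at most 61 bases, and 12 of the 1678 distinct 50-base windows of Calca occur in Calcb. No member shares an annotated exon base with another gene in GENCODE M21. Of 10 other peptidergic nociceptor markers, 0 passed the edgeR test, 5 had an unadjusted p under 0.05, beside 11.1% of all genes, and the median was -0.16. Those with the smallest p were the growth factor Bdnf (-0.50 ± 0.08, adjusted p = 0.119), the prostacyclin receptor Ptgir (-0.18 ± 0.04, adjusted p = 0.273) and the heat-gated channel Trpv1 (-0.19 ± 0.04, adjusted p = 0.273).

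**Figure D2:**
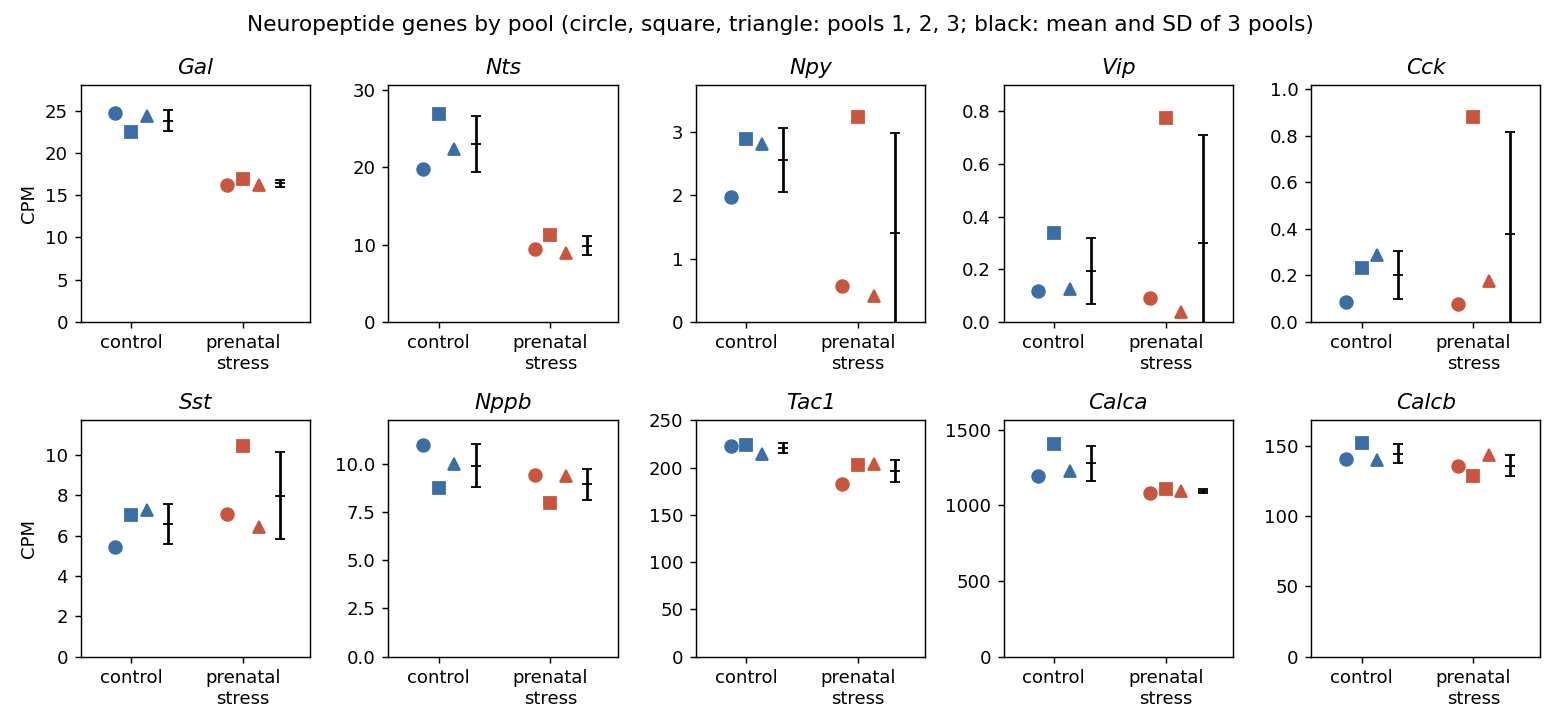
CPM of the 10 neuropeptide genes in 3 control pools (blue) and 3 prenatal stress pools (red), with circles, squares and triangles for pools 1, 2 and 3 and the mean and SD of 3 pools in black, on axes that begin at 0, where SD bars are cut off. Gal, Nts, Tac1 and Calca do not overlap between groups, and stress pool 2 is the highest of the 6 pools for Npy, Vip, Cck and Sst.

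Counting genes whose pools did not overlap, Gal, Nts, Tac1 and Calca made 4 of the 9 tested, all lower in stress pools. Over all genes tested 18.1% did not overlap in either direction, 8.76% with lower and 9.33% with higher values in stress pools. Nothing is read from this count, since the genes were chosen with the contrast known.

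The remaining peptides, Npy, Vip and Cck, varied more between stress pools than between control pools, with stress pool 2 the highest pool for each. Npy, a peptide of sympathetic neurons and of injured sensory neurons, stood at 1.97, 2.88 and 2.81 CPM in controls and at 0.568, 3.23 and 0.407 CPM in stress pools. Stress pools 1 and 3 lay below every control pool and stress pool 2 above every one. The log2 fold change was -0.86 ± 0.70 (edgeR adjusted p = 0.694), and without stress pool 2 it was -2.38 ± 0.26 (adjusted p = 0.0737). It was -1.31 ± 0.52 with the replicate block and -0.48 and -0.45 without stress pools 1 and 3.

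Vip, found in sympathetic and parasympathetic neurons and in spinal cord, had only 8, 22 and 11 counts in control pools and 7, 51 and 2 counts in stress pools. These are 0.115, 0.339 and 0.126 CPM and 0.0904, 0.774 and 0.0387 CPM, and the last lies below the 0.0581 CPM that 3 counts give in that library. Without the filter on low counts its log2 fold change was 0.67 ± 0.77 (edgeR adjusted p = 0.793). Cck, a peptide of spinal cord and brain neurons, had 6, 15 and 25 counts in controls and 6, 58 and 9 in stress pools. Its levels were 0.0865, 0.231 and 0.287 CPM in controls and 0.0775, 0.88 and 0.174 CPM in stress pools, so that only stress pool 2 lay above the control range. The log2 fold change of Cck was 0.88 ± 0.85 (adjusted p = 0.75) and turned to -0.77 ± 0.63 without stress pool 2.

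Markers of other neurons and of central glia also differed between pools of a group. The 16 spinal cord and central glia markers summed to 49, 308 and 226 CPM in control pools and 57.8, 337 and 99 CPM in stress pools, and none of the 16 was at 0 counts in any pool. The glycine transporter Slc6a5 of inhibitory spinal neurons stood at 0.404, 25 and 6.33 CPM in controls and 0.659, 14 and 1.34 CPM in stress pools. Of the 10 sympathetic neuron markers, 7 were under 1 CPM in at least 1 pool, a choice made after seeing the values. These 7 summed to 7.78, 2.37 and 1.82 CPM in controls and 1.55, 46.8 and 1.63 CPM in stress pools. Dbh, the enzyme that makes noradrenaline, was at 1.93, 0.262 and 0.0688 CPM in controls and 0.116, 13.4 and 0.0387 CPM in stress pools. The sympathetic factor Hand2 was at 0 counts in stress pool 3. Stress pool 2 was thus the highest for both marker sums and for Npy, Vip, Cck and Sst, and control pool 2 was the second highest for the spinal cord sum, Npy and Vip. The part of these cells in the peptide values was not tested. Gal, at 16.2, 16.9 and 16.2 CPM, and Nts were also highest in stress pool 2 among the stress pools. The deviations of Nts and of the spinal cord sum from their group means had r = 0.88, a description. Over the 10 genes this r ranged from -0.92 (Nppb) to 0.91 (Cck), with Sst at 0.88 and Gal at -0.20.

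**Figure D3:**
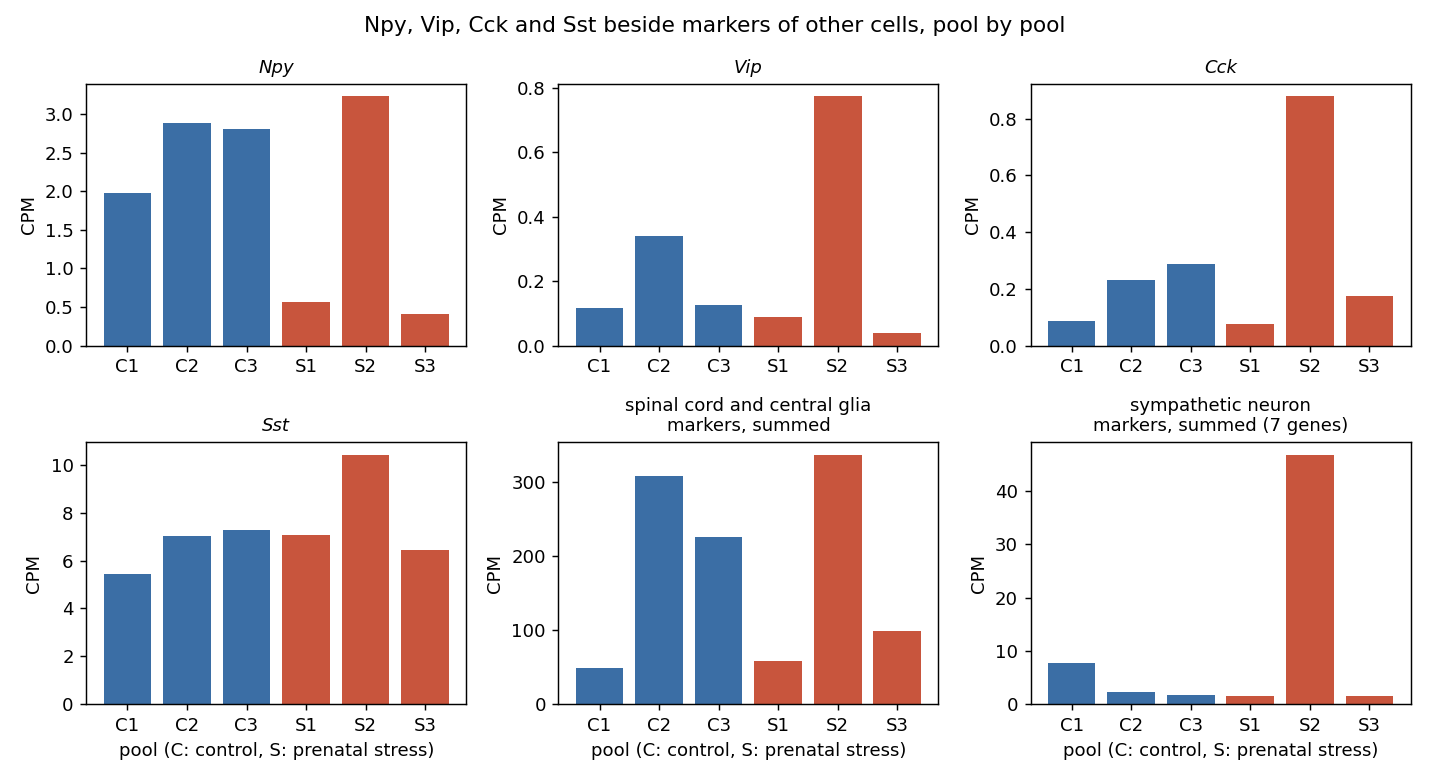
CPM in each pool (C1 to C3 control, S1 to S3 prenatal stress) of Npy, Vip, Cck and Sst, and of the summed spinal cord and central glia markers (16 genes) and sympathetic neuron markers (7 genes). Stress pool 2 is the highest bar in all 6 panels, and the spinal cord sum is also high in control pools 2 and 3.

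Relations between peptides were computed for all 45 pairs on log2 CPM over the 6 pools, with exact two-sided permutation p-values adjusted by Benjamini-Hochberg over the 45 pairs. For 6 pairs, those among Gal, Nts, Tac1 and Calca, both genes separated the groups, so a pooled correlation would restate the group difference and none is given. Of the other 39 pairs, 26 were positive and 0 had an adjusted p under 0.05, with 2 at an unadjusted p under 0.05. Cck and Sst had a positive correlation (Pearson r = 0.87, exact p = 0.0278, adjusted p = 0.339; Spearman rho = 0.66, exact p = 0.175, adjusted p = 0.562). Their r was 1.00 (0.9975) over the 4 pools left without stress pools 1 and 2, and 0.91 for deviations from the group means. Sst and Nppb had a negative one (r = -0.87, exact p = 0.0444, adjusted p = 0.339; rho = -0.49, exact p = 0.356, adjusted p = 0.615). Without control pool 1 and stress pool 2, the farthest from the median of Sst, the r of Sst and Nppb was 0.25. Its sign thus depended on those pools. For deviations from the group means in all 6 pools the r of Sst and Nppb was -0.84. Npy and Vip had the same rank order in the 6 pools (rho = 1.00, exact p = 0.0028, the smallest that 6 pools can give, adjusted p = 0.125), with r = 0.78 (exact p = 0.0681, adjusted p = 0.339) and 0.76 without stress pools 1 and 3.

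The same was done for the 10 genes against the 2 marker sums, 20 relations in all. Markers of the sympathetic sum were chosen after seeing the values of these pools, so its p-values are a description. Of these 20 relations, 0 passed after adjustment over the 20. The closest was Cck with the spinal cord and central glia sum (r = 0.87, exact p = 0.0111, adjusted p = 0.222; rho = 0.89, exact p = 0.0333, adjusted p = 0.343), with r = 0.67 without control pool 1 and stress pool 1. Vip and the sympathetic sum had r = 0.76 (exact p = 0.0444, adjusted p = 0.389; rho = 0.77, exact p = 0.103, adjusted p = 0.343). Gal was near 0 against both sums, at r = 0.09 and -0.07 (exact p = 0.922 and 0.956, adjusted p = 0.985 for both; rho = -0.09 and 0.60). Without the 2 farthest pools the r of Gal was 0.41 against the spinal cord sum and 0.72 against the sympathetic sum.

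Receptors of the 10 peptides were listed by name. Of 33 receptor and accessory genes 29 were tested, and 0 passed the edgeR test beside 0.129% of all genes. Of the 29, 6 had an unadjusted p under 0.05 in that test (11.1% of all genes). The DESeq2 Wald test called 1, beside 2.2% of all genes with an adjusted p in it. DESeq2 gave Ntsr1 and Sstr4 no adjusted p. The groups did not overlap for 10 of the 29, 5 higher and 5 lower, beside 18.1% of all genes. The receptor called by DESeq2 was the cholecystokinin receptor Cckbr, which also binds gastrin. It stood at 1.79, 2.05 and 2.03 CPM in controls and at 0.271, 0.925 and 0.271 CPM in stress pools. All stress pools lay below the controls, with stress pool 2 between the groups. The log2 fold change of Cckbr was -1.99 ± 0.45 (edgeR adjusted p = 0.267, and 0.00116 with DESeq2). Without stress pool 2 it was -2.85 ± 0.19 and passed the edgeR test (adjusted p = 0.0127). The other cholecystokinin receptor, Cckar, stood at 27.3 to 33.3 CPM in controls and 26.7 to 32.1 CPM in stress pools.

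The galanin receptor Galr1, which inhibits neurons, stood at 3.53 to 3.9 CPM in controls and 4.14 to 4.54 CPM in stress pools (log2 fold change 0.20 ± 0.09, edgeR adjusted p = 0.485), opposite in sign to Gal. Galr2 and Galr3 were at most 0.218 CPM and were not tested. The neurotensin receptor Ntsr1 stood at 0.706, 0.693 and 0.757 CPM in controls and 0.232, 0.516 and 0.407 CPM in stress pools (-0.91 ± 0.28, adjusted p = 0.364). Ntsr2 ranged from 3.65 to 6.87 CPM in controls and from 4.33 to 8.36 CPM in stress pools, highest in stress pool 2. The inhibitory Npy receptor Npy1r stood at 24.7 to 28.3 CPM in controls and 18.3 to 23.7 CPM in stress pools (-0.30 ± 0.10, adjusted p = 0.366). Npy2r overlapped between the groups, at 34.9 to 36.6 and 29.9 to 35.9 CPM.

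The CGRP receptor is formed by Calcrl with the accessory protein Ramp1, and with Ramp2 or Ramp3 Calcrl binds adrenomedullin. Calcrl stood at 10.9, 11.4 and 11.3 CPM in controls and 12, 12.4 and 12.6 CPM in stress pools (log2 fold change 0.14 ± 0.05, edgeR adjusted p = 0.425). Ramp2 stood at 9.73, 11.2 and 11.5 CPM in controls and 13, 12.9 and 13.3 CPM in stress pools (0.28 ± 0.07, adjusted p = 0.298). Both were higher in every stress pool than in every control pool and neither passed. Ramp3 was also higher without overlap (0.45 ± 0.20, adjusted p = 0.459), while Ramp1 overlapped at 2.41 to 3.13 and 2.23 to 3.57 CPM. Calcrl and Ramp2 are abundant in vessels, and the 6 endothelial markers summed to 86.7 to 93.1 CPM in controls and 88.4 to 92.8 CPM in stress pools. The part of vessel cells in the receptor values was not tested. The receptor component Crcp did not overlap either (-0.10 ± 0.04, adjusted p = 0.427). The natriuretic peptide receptors did not pass, with Npr2 at 151 to 158 and 148.5 to 169 CPM, Npr1 at 0.21 ± 0.09 (adjusted p = 0.463) and Npr3, which clears natriuretic peptides, at -0.20 ± 0.09 (adjusted p = 0.455). The neurotensin-binding sorting receptor Sort1 stood at 76.5 to 85.6 and 78.1 to 89.6 CPM. Adcyap1r1, which binds PACAP, ranged from 5.33 to 15.6 and 5.8 to 18.3 CPM and was highest in stress pool 2. Vipr2, Sstr1, Sstr4 and Tacr3 were each below 2 CPM in every pool and overlapped. The somatostatin receptor Sstr2 stood at 4.61 to 5.39 and 4.36 to 4.99 CPM, and the substance P receptor Tacr1 at no more than 0.865 CPM in any pool.

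**Figure D4:**
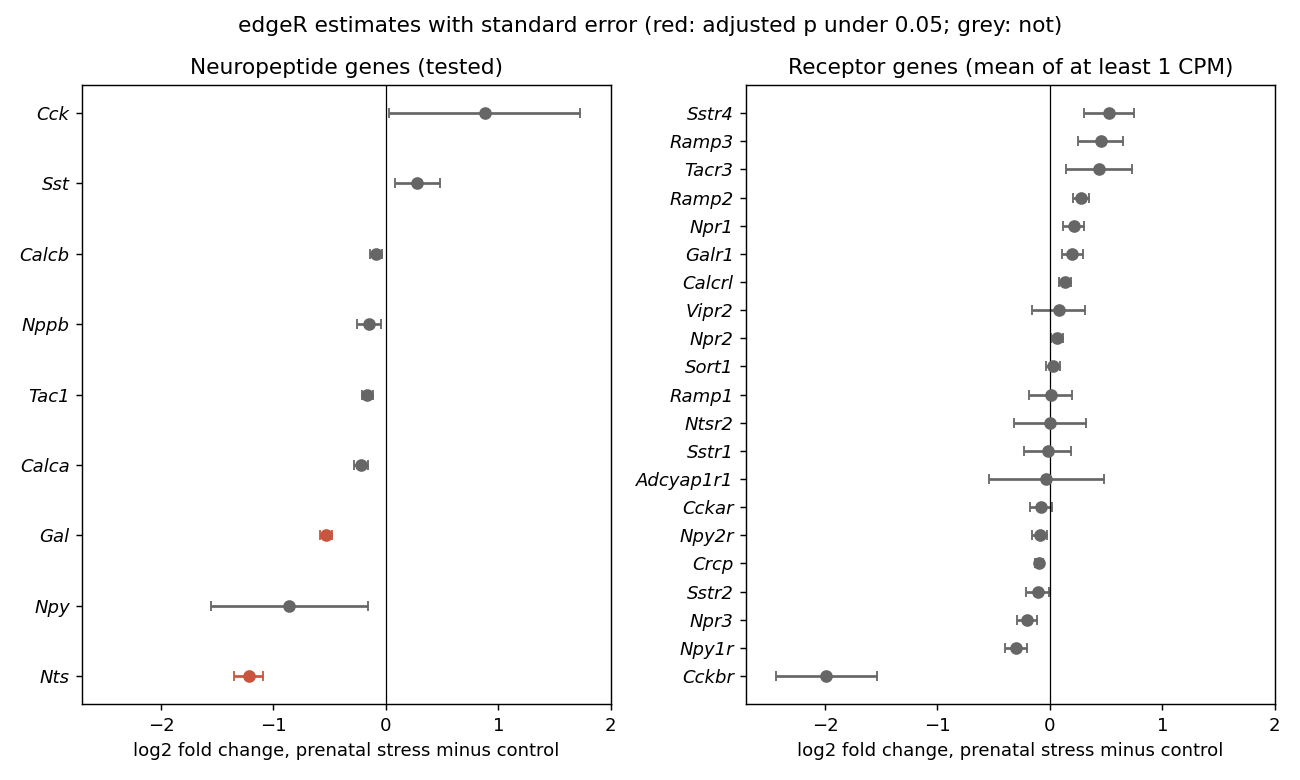
Log2 fold change of prenatal stress minus control, with its standard error from edgeR, for the 9 tested neuropeptide genes and the 21 receptor genes with a mean of at least 1 CPM. Gal and Nts (red) are the only genes shown with an adjusted p under 0.05, and Cckbr at -1.99 has the largest size among these receptors.

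Of 14 convertases, other processing enzymes and granins, 1 was called higher, beside 0.0844% of all genes, and 0 lower, beside 0.0447%. Pcsk1n, which encodes an inhibitor of the convertase PC1/3, rose from 40.6, 44.2 and 46.6 CPM in controls to 80.4, 87.5 and 73.8 CPM in stress pools. Its log2 fold change was 0.88 ± 0.07 (edgeR adjusted p = 0.0113), with 0.0768 without control pool 2 and 0.0683 without stress pool 1. The convertase genes themselves, Pcsk1 (85.5 to 87.2 and 80.5 to 86.5 CPM) and Pcsk2 (252 to 263 and 244 to 249 CPM), had values slightly lower in stress pools and did not pass. The secretogranin Scg2 (-0.11 ± 0.04, adjusted p = 0.366) did not overlap between groups.

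Of 14 genes known to rise in injured sensory neurons, none of them a peptide described here, 3 were called lower and 0 higher. Over all genes tested 0.0447% were called lower, and 9618 of 20146 had negative log2 fold changes. The median of the 14 was -0.40, with 12 negative and 2 positive. The 2 positive genes were Jun (0.09 ± 0.04, edgeR adjusted p = 0.463) and Hspb1 (0.04 ± 0.04, adjusted p = 0.772). Jun was slightly higher in every stress pool than in every control pool. This list was chosen with earlier results of these pools known and is not independent evidence. The called genes were Sprr1a (-4.10 ± 0.38, edgeR adjusted p = 0.015), Gpr151 (-1.43 ± 0.13, adjusted p = 0.0147) and Atf3 (-1.12 ± 0.13, adjusted p = 0.0443). Atf3 lost its call without any single pool (adjusted p = 0.0698 to 0.277), and Gpr151 without any but control pool 1 (0.0511 to 0.0768). Sprr1a lost it without stress pool 1 (0.107), control pool 1 (0.0663) or control pool 2 (0.0768). With a robust estimate of the spread, Sprr1a and Atf3 lost their calls (0.0613 each). Of the 4 peptides named above as injury-induced, Gal was lower in all stress pools. Npy and Vip were below every control pool in stress pools 1 and 3 and above every one in stress pool 2, and Cck overlapped with the controls. Calca and Tac1, named above as falling after injury, were also lower in all stress pools. Their log2 fold changes were -0.22 and -0.17, and neither passed the edgeR test.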

How the data were processed

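Raw counts of reads per gene symbol were deposited by the authors, 1 file per library, and were used as deposited. Per the submitters' processing notes, FastQC, STAR 2.4 and HTSeq 0.9.1 were used and the builds GRCm39 and mm10 are named. Neither the build used nor the strand setting is stated in the notes or labels. Libraries were TruSeq Stranded mRNA, per the labels' protocols. Reads given to no gene (15.3% to 16.2% per file) were left out.

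Tests across genes used edgeR (version 4.0.16, R version 4.3.3; TMM factors, filterByExpr with a minimum count of 10, quasi-likelihood F test, Benjamini-Hochberg adjusted p under 0.05 over 20146 genes), and the script was tested on simulated data. The standard error is the log2 fold change divided by the square root of F. CPM uses TMM-scaled library sizes, log2 CPM a prior count of 2, and lengths come from GENCODE M21. Correlations used exact permutation. DESeq2 1.42.0, RLE factors, no filter, a robust spread, a replicate block and leaving out pools were tried as alternatives. No 2 libraries agreed within sampling noise (chi-square per degree of freedom 10.6 to 36.4).

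The labels number the pools 1 to 3 in both groups. Deviations of same-numbered pools from their group means correlated at 0.34, 0.22 and 0.13 across genes. Differently numbered pools gave -0.30 (control pool 1 with stress pool 2) to 0.12 (control pool 3 with stress pool 2). The labels do not say that the numbers mark a shared litter or batch. The main test therefore had no block, and the blocked value is given where it changes a call. The members and gene lists were chosen with earlier results of these data known. Named genes were all 10 members, receptors with a mean of at least 1 CPM, and in the other lists the genes that passed and up to 3 of smallest p. The rule added the 3 genes most like each member, and not all are printed. Ntsr1, Galr2, Galr3, Tacr1, Il31ra, Jun, Hspb1, Pcsk1, Pcsk2 and the single spinal cord and sympathetic markers fall outside this rule. They were picked once their values had been seen. The values of some single marker genes are not reported here.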

Additional observations from a re-analysis of the deposited data

How the results depend on the processing

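The count of all genes passing the edgeR test was 26, against 49 with no low-count filter, 330 with the DESeq2 Wald test and 22 with the replicate block. It ranged from 2 (without control pool 2) to 14 (without control pool 1) with each pool left out, and was 1 without both pools numbered 2, an alternative added after seeing the data. Among the neuropeptide genes the count of 2 became 1 with the replicate block, where Gal lost its call, 0 to 1 with a pool left out and 0 without both pools numbered 2. The block changed no other call among the genes named. The receptor count of 0 became 1 (Cckbr) with DESeq2 and 0 to 1 with a pool left out. Cck ranged from -0.77 (without stress pool 2) to 1.39 (without stress pool 1) around its log2 fold change of 0.88, and was -0.68 without both pools numbered 2. DESeq2 gave Cck no adjusted p, and the correlation of Sst and Nppb turned from -0.87 to 0.25 without the 2 farthest pools. The causes were not tested. A fit with a pool left out also has fewer degrees of freedom, and the part of this in the lost calls was not tested either. The other 8 tested neuropeptide genes kept their direction in every alternative run. The robust spread ended the calls of Sprr1a and Atf3. Counts of Vip and Cck were low, at 2 to 58 in a library, and which of depth and spread between pools limits them was not tested.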

Other observations

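Of 31 other neuropeptide precursors listed, 16 were tested and 0 passed the edgeR test, with 3 at an unadjusted p under 0.05 (11.1% of all genes) and a median log2 fold change of -0.14. The 3 were Adcyap1, the precursor of PACAP, at 135 ± 10.4 CPM in controls and 117 ± 7.72 CPM in stress pools (SD, n = 3; log2 fold change -0.20 ± 0.07, edgeR adjusted p = 0.377), Cartpt (-0.24 ± 0.08, adjusted p = 0.366) and the neuromedin gene Nmb (-0.13 ± 0.06, adjusted p = 0.449). The opioid precursors Penk (9.04, 11.4 and 11 CPM in controls, 5.72, 15.3 and 5.56 CPM in stress pools) and Pdyn (0.144, 0.447 and 0.849 CPM, then 0.336, 1.44 and 0.329 CPM) and the tachykinin Tac2 (0.13, 0.632 and 1.29 CPM, then 0.103, 2.34 and 0.387 CPM) were, like Npy, Vip, Cck and Sst, highest in stress pool 2. Penk, Pdyn and Tac2 were singled out after their values were seen.

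The genes whose log2 CPM followed a member most closely over the 6 pools, among 14005 genes with a mean of at least 1 CPM, are a description only. For Gal they were Akr1a1, Tuba1b and Vcp (r = 0.99 each), and 99 genes had an r above 0.95. For Nts they were Atp5g2, Jpt1 and Cetn4 (r = 0.99 each), with 94 genes above 0.95. Gal and Nts separated the groups, so a high r with either can restate the group difference. For Npy they were Larp1 (r = 1.00), Dcc and Zfp93 (r = 0.99 each), and for Sst Ahdc1 (r = 1.00), Hoxb8 and Cad (r = 0.99 each).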
